A study of Danio rerio with 12 samples.

Results

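Of the 32520 Ensembl genes in the table of whole zebrafish larvae, 106 met a rule for genes lowered in all 3 exposures. A gene was a member when its control mean was at least 5 TPM, each of the 3 exposure means was at most 0.6 times that mean, and all 9 exposed values lay below the lowest control value. Among the genes, 11664 had a control mean of at least 5 TPM and could have met the rule, and the whole table holds 44667 genes and assembled loci. TPM is a level scaled by gene length and to the same total in every library. All 12 libraries were used to choose the members, so their values against control are a description and carry no test.

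All larvae were wild type and 4 days old, counted from fertilisation. They had been exposed to OBS at 30 mg/L (OBS30), OBS at 20 mg/L (OBS20) or PFOS at 20 mg/L (PFOS20), or were left untreated (control), with 3 libraries in each of the 4 groups. PFOS is perfluorooctane sulfonate, a persistent surfactant, and OBS (sodium p-perfluorous nonenoxybenzene sulfonate) is used in its place. PFOS carries its sulfonate on a saturated perfluorinated chain, and OBS carries it on a benzene ring joined through an ether oxygen to an unsaturated perfluorinated chain. The labels do not say whether the libraries of a group came from separate clutches or pools, so p-values measure only the spread between these libraries. The period of exposure is not given in the sources used here.

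The liver of a larva secretes most plasma proteins, among them protease inhibitors and complement components, and carries many of the enzymes that modify drugs and foreign compounds. Cholesterol is made from acetyl-CoA through the mevalonate pathway, squalene and lanosterol, and in vertebrates the genes of this pathway are driven together by SREBP transcription factors. Enterocytes of the gut absorb lipid, retinoid and amino acids through their brush border, while the exocrine pancreas supplies amylase and proteases. In a bulk library of whole larvae, fewer cells of a type and less RNA per cell cannot be told apart.

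Depth per library is unknown because the values are TPM without counts. The library of OBS20 replicate 3 stood apart, with a median of 1.27 TPM over all genes and loci and 23942 of them at 1 TPM or more. PFOS20 replicate 2 came next with a median of 1.57 TPM, and the other 10 libraries lay between 1.8 and 2.33 TPM. Over the 11664 eligible genes, the median ratio to the control mean was 0.774 in OBS20 replicate 3 and 0.788 in PFOS20 replicate 2, and between 0.883 and 1.06 in the other exposed libraries. Without OBS20 replicate 3 the rule gave 91 genes, of which 83 were among the 106.

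The members lay well below the general level of their own library in each exposed library. Their median was 31.5% to 36.3% of the control mean in the OBS30 libraries, 38.7% to 45.7% in the OBS20 libraries and 38.3% to 44.9% in the PFOS20 libraries, against 94.0% to 106% in the control libraries. Their summed level was 1137 to 1196 TPM in OBS30, 1562 to 1671 TPM in OBS20 and 1604 to 1668 TPM in PFOS20, against 3386 to 4070 TPM in control. OBS30 libraries were the lowest by this sum, and the OBS20 and PFOS20 ranges overlapped. Rescaling the libraries by median of ratios shifted the libraries as a whole: the median log2 difference from control over all genes tested was -0.08 in OBS20 and -0.13 in PFOS20 as deposited, and -0.01 in OBS20 and 0.00 in PFOS20 after it. Under that scaling 66 genes met the rule, 64 of them members.

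**Figure D1:**
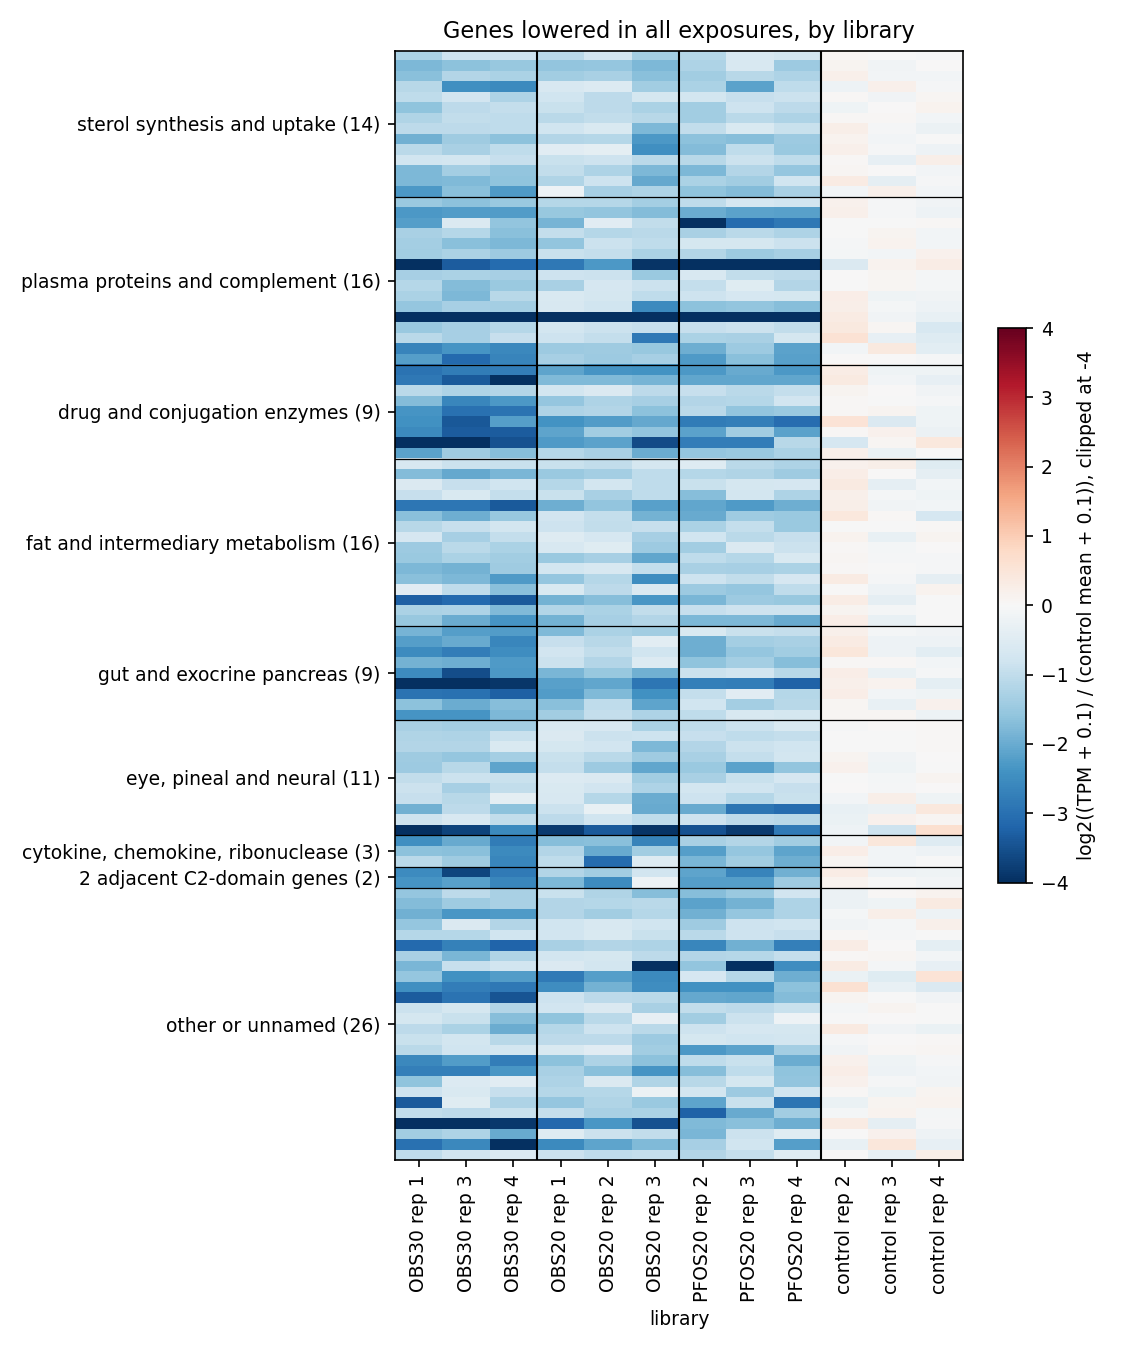
Level of each of the 106 members (rows, grouped by role, highest control mean first within a role) in each of the 12 libraries (columns), as log2 of the ratio of TPM + 0.1 to the control mean + 0.1, clipped at -4. The 9 exposed columns are blue throughout because the rule requires it, and the darkest rows include ahsg2, mchr1b, itln3 and si:ch211-270n8.1.

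The thresholds cut through a continuous range. The members nearest to the limit were pde5aa, serpinf2a and fabp7b, whose highest exposure mean was 59.6% of control in each case. The nearest genes outside it were ngb at 60.2%, inaa at 60.3% and gys2 at 60.3%. By the conditions of a single exposure, 542 eligible genes qualified in OBS30, 297 in OBS20 and 1760 in PFOS20, and these counts share the same control libraries.

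Genes of cholesterol synthesis, most of them of its later part, were among the members. Of 30 genes on a list of sterol synthesis and its control, 11 were members, and 10 of these code for enzymes of the pathway. Of these 10, hmgcs1 acts before squalene and the other 9 act from squalene epoxidase onward. By the table's own annotation, 9 of the 106 members (8.49%) carried the pathway term Steroid biosynthesis, against 16 of the 11664 eligible genes (0.137%). This term was picked after the values were seen. The 14 members grouped by hand under sterols had medians of 41.4% of the control mean in OBS30, 48.0% in OBS20 and 43.6% in PFOS20.

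The first of these enzymes, hmgcs1, makes the HMG-CoA that feeds the mevalonate pathway. Its level was 18.6, 25.7 and 25.7 TPM in OBS30, 21.3, 26.5 and 17.8 TPM in OBS20 and 20.5, 29.0 and 27.5 TPM in PFOS20, against 47.2, 44.9 and 44.0 TPM in control. The exposed groups overlapped one another and lay apart from control. Squalene epoxidase, sqlea, which opens the sterol branch, had 2.24, 3.01 and 2.57 TPM in OBS30, 3.93, 3.35 and 2.23 TPM in OBS20 and 2.20, 3.48 and 2.65 TPM in PFOS20, against 8.43, 8.07 and 7.35 TPM in control. Again the exposed groups overlapped.

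Lanosterol demethylase, cyp51, had 9.44, 13.4 and 12.6 TPM in OBS30, 11.4, 12.18 and 9.37 TPM in OBS20 and 11.6, 14.03 and 12.9 TPM in PFOS20, against 34.9, 27.9 and 28.4 TPM in control. The next demethylation enzyme, msmo1, had 11.3, 12.7 and 13.7 TPM in OBS30, 13.3, 13.7 and 11.4 TPM in OBS20 and 16.8, 25.2 and 14.53 TPM in PFOS20, against 42.9, 36.1 and 40.2 TPM in control. The OBS libraries of msmo1 all lay below the 3 PFOS20 libraries, though that difference did not pass the test. Later enzymes of the pathway were members too: nsdhl, hsd17b7, ebp, sc5d and dhcr7 had means between 31.4% and 56.3% of control in OBS30, 36.1% and 52.0% in OBS20 and 32.4% and 56.4% in PFOS20. In dhcr7, which acts late in the pathway, OBS20 replicate 3 at 3.48 TPM stood below its partners at 7.10 and 8.06 TPM.

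**Figure D2:**
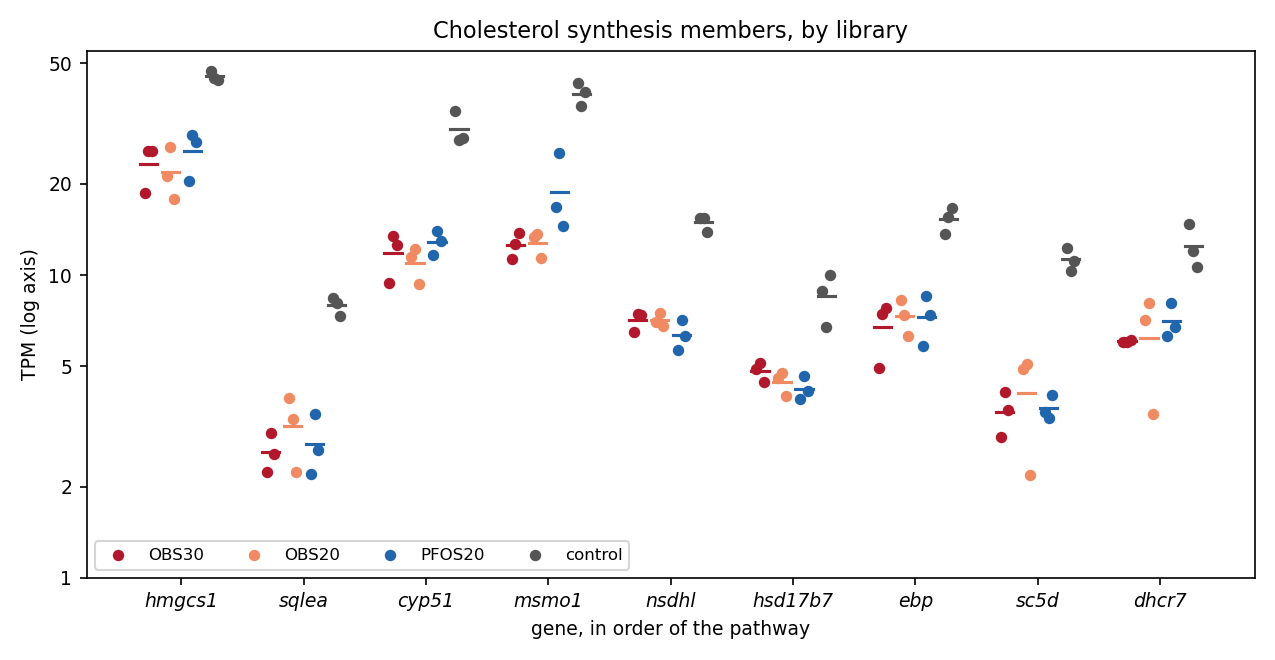
TPM (log axis) of 9 cholesterol synthesis enzymes among the members, in order of the pathway, for each library (points) with the group mean (bar), in OBS30, OBS20, PFOS20 and control. Every exposed point lies below its gene's control points, and in each gene the exposed groups overlap except for msmo1, where both OBS groups lie below PFOS20, and dhcr7, where OBS30 lies below PFOS20.

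The other members grouped under sterols were placed there by hand. NPC1L1, the sterol importer of the brush border, had 1.44, 1.48 and 1.65 TPM in OBS30, 2.24, 2.93 and 1.18 TPM in OBS20 and 2.13, 1.93 and 2.95 TPM in PFOS20, against 6.66, 4.02 and 5.01 TPM in control. CABZ01044746.1, whose neighbour in the GRCz12tu annotation is NPC1L1 with no gene between them, was at 26.9%, 56.6% and 37.7% of control in OBS30, OBS20 and PFOS20. It has a clone-based name only, and its place beside NPC1L1 does not show a role in sterols. The remaining 2 are tmem97, an endoplasmic reticulum protein that binds sterols, and ebpl, a relative of the isomerase ebp, at 49.96% and 22.6% of control in OBS30, 55.4% and 55.6% in OBS20 and 56.2% and 33.3% in PFOS20.

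Outside the members, 17 of its genes were tested with limma, and 4 fell in OBS30, 2 in OBS20 and 9 in PFOS20, and 0 were called higher in any of them on the deposited scale. Over the whole list, 3 genes were called higher in PFOS20 after median-of-ratios scaling and 3 after quantile normalisation. Lanosterol synthase, lss, fell in all exposures, to 0.443 TPM in OBS30, 1.11 TPM in OBS20 and 1.01 TPM in PFOS20, against 3.81 TPM in control, and stayed outside the rule because its control mean was under 5 TPM. Farnesyl diphosphate synthase, fdps, fell to 21.5 ± 2.32 TPM in OBS30, 17.1 ± 2.56 TPM in OBS20 and 20.8 ± 1.53 TPM in PFOS20, against 30.1 ± 2.11 TPM in control (SD, n = 3 each; limma adjusted p = 0.047, 0.012 and 0.021). The HMG-CoA reductase gene hmgcrb had 14.2, 13.97 and 15.5 TPM on average in OBS30, OBS20 and PFOS20, against 13.3 TPM in control, and did not pass the test in any of them, nor did ldlra, insig1, stard4 and ggps1. Its paralogue hmgcra averaged 4.04, 3.73 and 4.83 TPM, against 6.94 TPM in control, and was not called either. An assembled locus annotated as HMG-CoA reductase met the conditions of the rule, at 1.94, 3.35 and 2.94 TPM, against 9.21 TPM in control. The gene of the transcription factor srebf2 fell in PFOS20 to 18.1 ± 2.26 TPM, against 32.8 ± 2.64 TPM in control (SD, n = 3 each; limma adjusted p = 0.016). Its means of 21.2 ± 1.70 TPM in OBS30 and 24.2 ± 7.24 TPM in OBS20 were also below control but not called (limma adjusted p = 0.094 and 0.44).

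With its 11 members kept in, 14 of the list's 28 tested genes were called lower in OBS30, 10 in OBS20 and 19 in PFOS20. The share called lower over all 30674 genes and loci tested was 3.70%, 0.805% and 11.9%. The members were chosen on these same contrasts, so their part of those counts is no evidence. The OBS30 count was 9 when control replicate 4 was left out. Leaving out control replicate 2, 3 or 4 gave 5, 5 or 6 in OBS20. In PFOS20 the count was 10 with PFOS20 replicate 2 removed and 12 with control replicate 3 removed.

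Proteins secreted into plasma made up 16 members, with medians of 37.1% of control in OBS30, 45.9% in OBS20 and 41.9% in PFOS20. The most abundant was serpina1l, a serine protease inhibitor of the antitrypsin family. It had 193, 172 and 193 TPM in OBS30, 246, 247 and 212 TPM in OBS20 and 269, 336 and 315 TPM in PFOS20, against 612, 523 and 486 TPM in control. The 4 groups did not overlap and stood in that order.

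The fetuins are liver glycoproteins that bind mineral or inhibit proteases. Fetuin B, fetub, had 37.5, 39.4 and 39.2 TPM in OBS30, 65.2, 62.4 and 55.5 TPM in OBS20 and 47.3, 42.6 and 41.7 TPM in PFOS20, against 215, 182 and 161 TPM in control. OBS20 was the highest exposed group, and no groups overlapped. The lowest share of control among all members belonged to ahsg2, of the fetuin A family, which was listed at 0, 0 and 0.09 TPM in OBS30, 0.37, 0.11 and 0.33 TPM in OBS20 and 0.12, 0.09 and 0.10 TPM in PFOS20, against 16.9, 12.21 and 10.9 TPM in control. A further member has a clone-based name and is annotated as fetuin-B-like.

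Complement genes included components of the membrane attack complex and of the alternative pathway. The pore-forming c9 had 24.2, 27.5 and 19 TPM in OBS30, 31.2, 27.4 and 28.7 TPM in OBS20 and 24.6, 28.7 and 25.6 TPM in PFOS20, against 59.8, 65.0 and 56.0 TPM in control, and the exposed groups overlapped. Its partner c8a was at 39.8%, 55.4% and 52.5% of control in OBS30, OBS20 and PFOS20, and bfb, a factor B gene, at 16.3%, 35.6% and 27.2%. Factor D, cfd, the protease that cleaves factor B, was the exception in its pattern, with 15.1, 46.7 and 23.4 TPM in OBS30, 19.4, 51.5 and 35.4 TPM in OBS20 and 3.80, 8.25 and 9.60 TPM in PFOS20, against 69.3, 69.3 and 72.6 TPM in control. Its PFOS20 libraries lay below all OBS libraries, which spread widely.

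Other plasma members were hp, habp2, serpinf2a, leg1.1 and si:ch211-270n8.1. The row with the symbol hp, haptoglobin, which the reference table lists under another symbol, had 22.4, 18.0 and 16.5 TPM in OBS30, 19.4, 31.5 and 28.2 TPM in OBS20 and 35.2, 35.4 and 32.0 TPM in PFOS20, against 56.4, 63.4 and 53.4 TPM in control. Its PFOS20 libraries were the highest of the exposed ones. The row si:ch211-270n8.1, annotated as a pentraxin and listed in the reference table under another symbol, was at 8.53% of control in OBS30, 13.3% in OBS20 and 4.90% in PFOS20. The 3 rows annotated as alpha-2-macroglobulin-like, a family of broad protease inhibitors, were si:dkey-105h12.2, sb:cb37 and CR626907.1, at 31.6% to 54.1% of control over the exposures. They lie near one another in the GRCz12tu annotation and may share reads, so their separate values are uncertain.

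Genes of the lists that mark liver and plasma proteins were also called outside the members. Among the 39 tested hepatocyte genes that were not members, 22 fell in OBS30, 12 in OBS20 and 14 in PFOS20. Among the 36 complement and coagulation genes that were not members, 18 fell in OBS30, 9 in OBS20 and 7 in PFOS20. Over all genes and loci tested, 3.70%, 0.805% and 11.9% were called lower in OBS30, OBS20 and PFOS20. With the members kept in, of 43 hepatocyte genes 26 were called lower in OBS30, 16 in OBS20 and 18 in PFOS20, and 6, 1 and 6 were called higher. Over all genes and loci tested, 4.73%, 0.681% and 6.35% were called higher in OBS30, OBS20 and PFOS20. Of 41 complement and coagulation genes, 5 of them members, 22 were called lower in OBS30, 11 in OBS20 and 12 in PFOS20, and 1, 0 and 2 higher. In PFOS20 that split was 8 lower and 5 higher after median-of-ratios scaling and 11 lower and 5 higher after quantile normalisation. The summed level of the 44 hepatocyte genes was 6201 to 7081 TPM in OBS30, 7468 to 7667 TPM in OBS20 and 7914 to 8125 TPM in PFOS20, against 9321 to 11082 TPM in control. The liver fatty acid binding protein fabp10a, a defining hepatocyte marker, averaged 886 ± 176 TPM in OBS30, 1316 ± 45.3 TPM in OBS20 and 1021 ± 120 TPM in PFOS20, against 1421 ± 164 TPM in control (SD, n = 3 each). Of the 44, 1 gene, serpina7, was at 0 in all PFOS20 libraries. The part of liver cell number in the members' levels was not tested.

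These list counts leaned on single libraries. The hepatocyte count in PFOS20 was 11 when PFOS20 replicate 3 was left out, and removal of control replicate 2 or 3 gave 7 or 10. The complement count in OBS30 was 14 without OBS30 replicate 4 and 14 without control replicate 3. In OBS20 it was 5 when OBS20 replicate 1 was left out, and removal of control replicate 2 or 3 gave 3 or 4. In PFOS20 it was 7 without each of PFOS20 replicate 2, control replicate 2 and control replicate 3.

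Enzymes and a transporter that handle drugs and foreign compounds made up 9 members and held some of the lowest values. Their medians were 14.4% of control in OBS30, 31.1% in OBS20 and 27.0% in PFOS20. The cytosolic sulfotransferase sult3st2 had 4.27, 2.99 and 1.19 TPM in OBS30, 9.22, 9.27 and 8.77 TPM in OBS20 and 7.51, 7.52 and 7.54 TPM in PFOS20, against 40.9, 29.5 and 25.1 TPM in control. The OBS30 libraries were the lowest of all, and OBS20 lay just above PFOS20 without overlap. Its paralogue sult3st3 was at 2.68%, 16.15% and 24.3% of control in OBS30, OBS20 and PFOS20, and reads shared by the 2 copies make their separate values uncertain.

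Another sulfotransferase, sult1st6, had 4.73, 2.53 and 3.21 TPM in OBS30, 5.40, 6.83 and 6.31 TPM in OBS20 and 7.05, 7.23 and 9.53 TPM in PFOS20, against 16.6, 16.1 and 15.7 TPM in control. Of the cytochrome P450 genes, cyp2ad2 had 4.05, 4.49 and 4.55 TPM in OBS30, 7.34, 6.09 and 6.02 TPM in OBS20 and 6.46, 7.84 and 6.47 TPM in PFOS20, against 39.0, 28.5 and 28.2 TPM in control. For cyp4v8 the values were 2.99, 1.91 and 1.94 TPM in OBS30, 6.70, 7.03 and 5.0 TPM in OBS20 and 7.37, 5.18 and 5.65 TPM in PFOS20, against 16.4, 17.0 and 14.1 TPM in control. In all of these genes OBS30 was the lowest group and did not overlap the others. The carboxylesterase ces3 was at 15.9%, 20.9% and 13.1% of control in OBS30, OBS20 and PFOS20, the methyltransferase-domain gene comtd1 at 11.5%, 31.1% and 27.0%, the epoxide hydrolase ephx5 at 44.3%, 58.3% and 50.6%, and oatx, an organic anion transporter, at 28.9%, 36.0% and 36.0%.

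Fat and intermediary metabolism counted 16 members, with medians of 37.5% of control in OBS30, 46.6% in OBS20 and 43.5% in PFOS20. Enzymes that build long polyunsaturated fatty acids were the lowest of them in OBS30 and OBS20. The row with the symbol fads2, a fatty acid desaturase that the reference table lists as another member of that family, had 2.93, 2.88 and 2.09 TPM in OBS30, 5.66, 7.42 and 4.80 TPM in OBS20 and 5.12, 4.52 and 5.62 TPM in PFOS20, against 25.9, 20.1 and 20.6 TPM in control. The elongase elovl2 had 1.01, 1.15 and 0.95 TPM in OBS30, 2.82, 3.2 and 2.04 TPM in OBS20 and 2.94, 3.81 and 3.64 TPM in PFOS20, against 13.1, 8.26 and 10.6 TPM in control. In both genes OBS30 lay below the other exposed groups, which overlapped. Liver pyruvate kinase, pklr, was at 27.4%, 41.4% and 42.1% of control in OBS30, OBS20 and PFOS20, the creatine-making methyltransferase gamt at 57.9%, 55.6% and 53.3%, and the peroxisomal beta-oxidation enzyme ehhadh at 36.9%, 44.8% and 54.2%. Of 28 fatty acid oxidation genes, 1 of them a member, 21, 16 and 12 had a mean below control in OBS30, OBS20 and PFOS20. Their sum was 3385 to 3567 TPM in PFOS20, above the 2378 to 3179 TPM of control, and overlapped control in OBS30 and OBS20. Of 24 fatty acid synthesis genes, 2 of them members, 11, 17 and 15 had a mean below control. Their sum lay below control in OBS20 and overlapped it in OBS30 and PFOS20. The share of all genes with a mean below control was not counted, so these counts of means have no background.

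Members expressed in gut and exocrine pancreas numbered 9, and each was lowest in OBS30. Their medians were 20.9% of control in OBS30, 36.4% in OBS20 and 46.9% in PFOS20. The member with the highest control level, rbp2a, the retinol carrier of enterocytes, had 160, 126 and 122 TPM in OBS30, 172, 238 and 223 TPM in OBS20 and 384, 313 and 296 TPM in PFOS20, against 662, 546 and 530 TPM in control. The 4 groups stood in that order without overlap. The brush-border protease mep1a.2, a meprin alpha subunit, had 1.39, 1.38 and 1.11 TPM in OBS30, 2.35, 3.34 and 2.09 TPM in OBS20 and 5.89, 8.32 and 5.17 TPM in PFOS20, against 13.8, 10.6 and 10.27 TPM in control. The meprin beta row, MEP1B, kept the same order, at 14.8%, 29.3% and 52.9% of control.

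Digestive enzymes of the pancreas had another order. The amylase amy2a had 15.6, 13.2 and 16.15 TPM in OBS30, 52.9, 45.6 and 52.1 TPM in OBS20 and 23.0, 30.5 and 34.3 TPM in PFOS20, against 124.9, 78.9 and 66.9 TPM in control, so that PFOS20 lay below OBS20. The elastase ela3l had 47.8, 53.6 and 35.6 TPM in OBS30, 114, 101 and 165 TPM in OBS20 and 56.6, 85.6 and 88.7 TPM in PFOS20, against 278, 190 and 190 TPM in control. A second row, zgc:92137, which the reference table lists under an amylase symbol, was at 24.5%, 55.8% and 33.8% of control in OBS30, OBS20 and PFOS20, and the amylase copies may share reads. The intelectin itln3, a lectin, was at 4.44%, 19.1% and 12.7%, and slc6a19b, a brush-border carrier of neutral amino acids, at 28.6%, 33.9% and 46.9%.

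Among the 39 enterocyte genes that were not members, 24 were called lower in OBS30, 8 in OBS20 and 4 in PFOS20. The share called lower over all genes and loci tested was 3.70% in OBS30, 0.805% in OBS20 and 11.9% in PFOS20. The share called higher was 4.73%, 0.681% and 6.35%. With the 4 members kept in the counts were 28, 11 and 8 of 43, and 0 were called higher by limma on the deposited scale. In PFOS20 the split was 6 lower and 1 higher after median-of-ratios scaling. The summed level of the enterocyte list was 2644 to 3308 TPM in OBS30, 3633 to 4455 TPM in OBS20 and 4591 to 5216 TPM in PFOS20, against 4541 to 6172 TPM in control, so that PFOS20 and control overlapped. The 20 exocrine pancreas genes, with amy2a as their one member, summed to 1982 to 1997 TPM in OBS30, 2437 to 3882 TPM in OBS20 and 1578 to 1678 TPM in PFOS20, against 2265 to 3406 TPM in control. Of these 20 genes, 17 had a mean below control in OBS30, 7 in OBS20 and 18 in PFOS20, and the same share over all genes was not counted. No gene of either list was at 0 in all libraries of a group, and the part of cell number was not tested. The enterocyte count in OBS30 was 18 without OBS30 replicate 3 and 18 without OBS30 replicate 4, and in OBS20 it was 6 without OBS20 replicate 1. In PFOS20, removal of PFOS20 replicate 2 or 3 gave 4 each time, and removal of control replicate 2 or 4 gave 2 or 3.

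**Figure D3:**
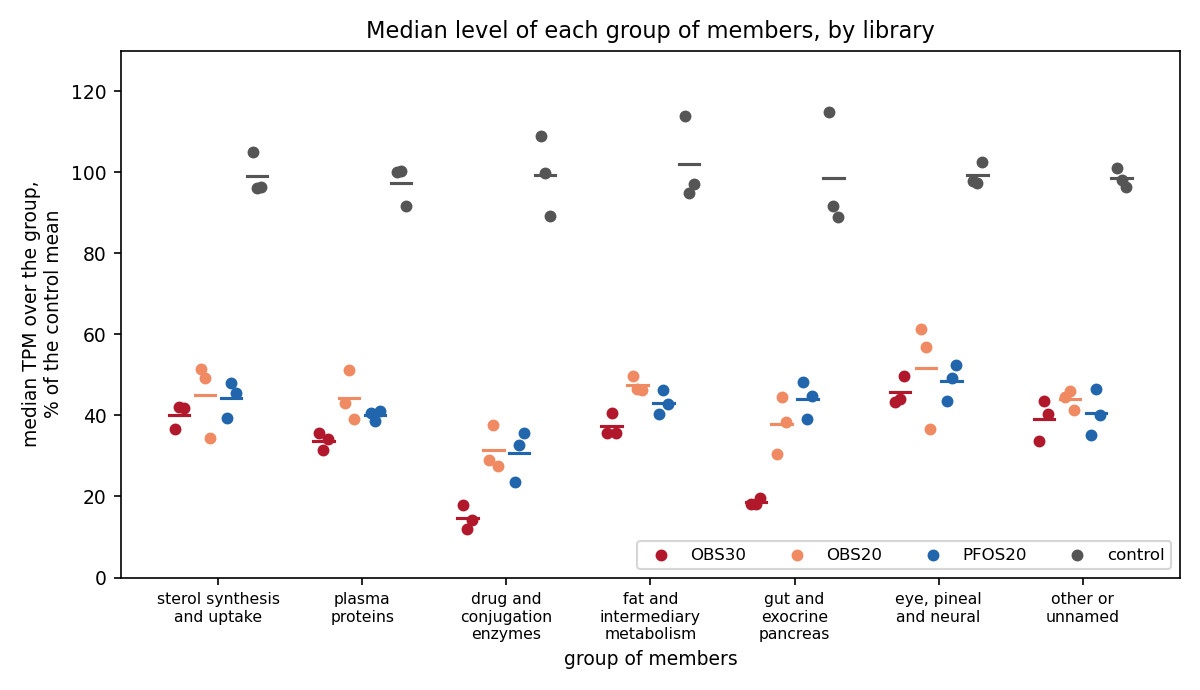
Median over the members of each role of TPM as a percentage of the control mean, for each library (points) with the group mean (bar), in OBS30, OBS20, PFOS20 and control. The OBS30 points lie apart from OBS20 and PFOS20 in the drug and conjugation enzymes (12.1% to 18.0%), in gut and exocrine pancreas (18.2% to 19.7%) and in the plasma proteins (31.4% to 35.5%). OBS20 replicate 3 is the lowest OBS20 point in every group drawn except gut and exocrine pancreas.

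Eye, pineal and neural genes gave 11 members with medians of 46.4% of control in OBS30, 50.9% in OBS20 and 51.0% in PFOS20, closer to the threshold than the other named groups. By library, the OBS20 medians were 61.5%, 56.9% and 36.6% in replicates 1, 2 and 3. In grk7a, cryaa, slc1a8b, kcnb2, rhol and pcdh1g26 the OBS20 mean met the cap of 0.6 only with replicate 3 included. The cone opsin kinase grk7a, which quenches the light response, had 21.5, 20.6 and 20.7 TPM in OBS30, 35.1, 34.1 and 22.4 TPM in OBS20 and 26.6, 29.7 and 35.0 TPM in PFOS20, against 52.0, 53.6 and 55.0 TPM in control. The low OBS20 value came from replicate 3. The lens chaperone cryaa had 20.4, 20.0 and 25.2 TPM in OBS30, 31.3, 25.7 and 26.4 TPM in OBS20 and 24.6, 23.2 and 24.3 TPM in PFOS20, against 46.4, 46.8 and 48.2 TPM in control. Its OBS20 libraries were the highest of the exposed ones. In the GRCz12tu annotation its neighbour is another member, cbsa, a sulfur amino acid enzyme, with no gene between them.

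The pineal enzyme aanat2, which sets melatonin rhythm, was at 56.5%, 50.9% and 49.6% of control in OBS30, OBS20 and PFOS20. The receptor gene mchr1b, for melanin-concentrating hormone, stood apart with 0.22, 0.34 and 0.88 TPM in OBS30, 0.30, 0.46 and 0.28 TPM in OBS20 and 0.41, 0.30 and 0.70 TPM in PFOS20, against 4.88, 3.10 and 8.91 TPM in control. All exposed values were under 1 TPM and overlapped. Of 48 photoreceptor and visual genes on the list only grk7a was a member, and of 31 lens genes only cryaa and crygm5. The whole photoreceptor and visual list summed to 7532 to 8448 TPM in OBS30, 9353 to 9526 TPM in OBS20 and 7534 to 9299 TPM in PFOS20, against 11474 to 12231 TPM in control, so that every exposed library lay below control. Of its 48 genes, 41, 43 and 39 had a mean below control in OBS30, OBS20 and PFOS20, and of the 31 lens genes 25, 24 and 26 did. The share of all genes with a mean below control was not counted. The median log2 difference from control over all genes tested was 0.02, -0.08 and -0.13. The lens list summed to 8872 to 10278 TPM in OBS30, 10708 to 12718 TPM in OBS20 and 10371 to 10611 TPM in PFOS20. In control it summed to 12590 to 12702 TPM, so that OBS20 overlapped control. The part of eye cell number in the members' levels was not tested. The lists for neurons, proliferation, skeletal muscle, immune cells, red blood cells, skin keratins, cartilage and bone matrix, ionocytes, lipoproteins, hormones and the circadian clock held 0 members. These lists hold 19 to 47 genes each, and members were 106 of the 11664 eligible genes. At that share, 0 members in a list of this size tells little about its tissue. Members such as mchr1b and the cytokine gene ebi3 also lay outside these lists.

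A few members had roles outside these groups. Cytokine, chemokine and ribonuclease genes were ebi3, ccl19a.1 and rnasel3, at 18.0% to 32.4% of control in OBS30, 25.0% to 42.6% in OBS20 and 25.2% to 40.4% in PFOS20. An adjacent pair annotated with a C2 domain, si:ch211-240l19.6 and si:ch211-240l19.5, were at 12.9% and 18.96% in OBS30, 47.0% and 44.5% in OBS20 and 21.8% and 26.7% in PFOS20. The second of them had 21.0 TPM in OBS20 replicate 3, against 6.89 and 4.14 TPM in its partners. The transglutaminase gene tgm1l3, which codes for a protein cross-linking enzyme, had 1.21, 1.57 and 1.1 TPM in OBS30, 7.21, 6.22 and 6.09 TPM in OBS20 and 3.04, 3.02 and 3.81 TPM in PFOS20, against 14.1, 12.9 and 11.8 TPM in control. All 4 groups of tgm1l3 stood apart. The remaining members, 26 in number with tgm1l3, had medians of 38.9%, 45.0% and 42.0% of control in OBS30, OBS20 and PFOS20, and many carry clone-based names only.

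Level, length and annotation of the members were set beside those of the eligible genes. Their median control level was 12.7 TPM, against 13.9 TPM for eligible genes, and their median listed gene length 1683 bases, against 2088 bases. The annotation extracellular space was on 12 members (11.3%), against 2.44% of eligible genes, and nucleus on 4 members (3.77%), against 17.5%. In the GRCz12tu annotation, to which 97 members could be matched, 8 pairs had at most 3 protein-coding genes between them, among them tgm1l3 and tent5ab with none. Some pairs are paralogues, such as sult3st2 and sult3st3. Pairs were not counted for the eligible genes, so whether members lie close together more often is not known.

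The rule sets no order among the exposures, but the values compared here also chose the members, and its caps favour low values. Of the 131 genes that met the conditions in OBS20 and PFOS20, the OBS30 mean was below the OBS20 mean in 86. Among the 25 of them that the OBS30 conditions removed, it was lower in 2. Shares of members and of eligible genes are therefore not compared like with like. By mean TPM, the higher OBS dose was the lower one in 85 members (80.2%), against 42.2% of eligible genes. OBS30 was the lowest of the exposure groups in 70 members, OBS20 in 11 and PFOS20 in 25. Without OBS20 replicate 3 the OBS30 mean TPM lay below the OBS20 mean TPM in 88 members.

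Tested with limma over all genes, 14 members fell in OBS30 relative to OBS20 (13.2%), against 0.466% of all genes and loci tested called lower and 1.58% called in either direction. None, 0 of 106, were called higher, against 1.11% of all tested, and at an unadjusted p under 0.05 the counts were 40 lower and 0 higher. The OBS30 libraries all lay below the OBS20 libraries in 39 members (36.8%), against 6.02% of all tested. The median log2 difference was -0.30 over the members and 0.10 over all tested. The rule used these same OBS30 and OBS20 values, so the gap between members and all tested describes the members and is no independent support.

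The members called in this dose comparison came from most roles, with gut and pancreas giving the most. The 4 from gut and pancreas were amy2a (log2 difference -1.68 ± 0.21 SE, limma adjusted p = 0.0037), ela3l (-1.44 ± 0.24, adjusted p = 0.017), zgc:92137 (-1.09 ± 0.16, adjusted p = 0.0084) and itln3 (-1.07 ± 0.21, adjusted p = 0.031). The conjugation enzymes sult3st2 (-1.49 ± 0.27, limma adjusted p = 0.025) and cyp4v8 (-1.15 ± 0.18, adjusted p = 0.013) fell as well. The largest change was in tgm1l3, at -1.71 ± 0.14 (limma adjusted p = 0.00097), with si:ch211-240l19.6 at -1.69 ± 0.27 and si:dkey-14d8.7, annotated with a dermatopontin domain, at -1.45 ± 0.21. The others called were fads2, fetub, habp2, dusp23a and dpys, with log2 differences between -0.93 and -0.64.

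None of the 14 sterol members passed this test, and none of the 11 eye, pineal and neural members. The difference for cyp51 was 0.09 with a 95% interval from -0.26 to 0.43, and for nsdhl it was 0.00 with an interval from -0.26 to 0.26. For hmgcs1 it was 0.09, from -0.30 to 0.49. Among the sterol members the interval excluded 0 for ebpl (-0.78, from -1.30 to -0.27) and CABZ01044746.1 (-1.06, from -1.87 to -0.26). Among the eye, pineal and neural members it did so for grk7a (-0.50, from -0.85 to -0.14) and cryaa (-0.34, from -0.58 to -0.09). In the other members of both groups it included 0. These intervals hold the differences that stay compatible with the data, and they are no limit of detection. Larger differences also went uncalled, such as elovl2 at -0.84 (95% interval -1.26 to -0.43, limma adjusted p = 0.055). Over all members the median half-width of the interval was 0.46 log2 units.

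**Figure D4:**
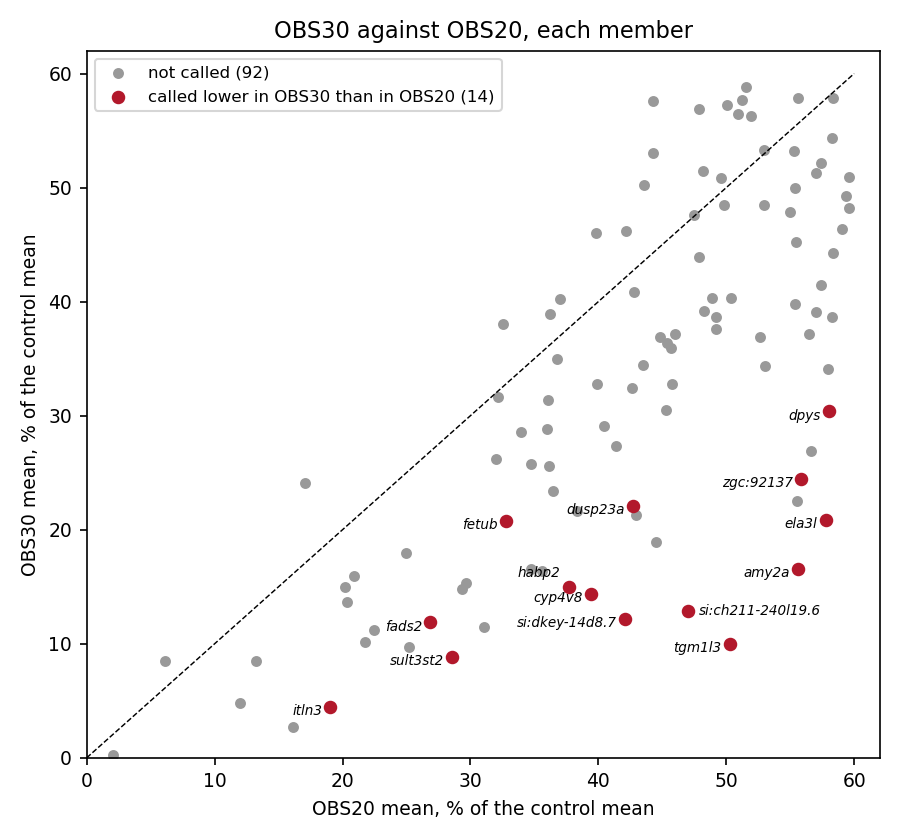
Mean of each member in OBS30 (vertical) and in OBS20 (horizontal), as a percentage of the control mean, with a dashed line where both are equal. Red points are the 14 members called lower in OBS30 than in OBS20, and 85 members lie below the line. The rule holds both axes to at most 60%.

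The count of 14 depended on single libraries. It was 8 without OBS30 replicate 1, 6 without OBS30 replicate 3 and 7 without OBS30 replicate 4. It was 7 without OBS20 replicate 1, 7 without OBS20 replicate 2 and 12 without OBS20 replicate 3. The 5 genes called without each library in turn were tgm1l3, si:dkey-14d8.7, amy2a, zgc:92137 and si:ch211-240l19.6. Because the cap at 0.6 in OBS30 favours low OBS30 values, the same test was run on the 131 genes that met the conditions in OBS20 and PFOS20, with OBS30 left out of the choice. This check was added after the data had been seen. Of these, 14 were called lower in OBS30 than in OBS20 (10.7%) and 0 higher. The OBS30 mean of log2(TPM + 1) was lower in 86, and the median difference was -0.19. The 131 hold all 106 members and the fit was the same, so the lower count could not fall below 14. The 25 genes added gave 0 calls in either direction, so the 14 are the same genes. The check therefore cannot test the lower calls.

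At the matched dose of 20 mg/L, OBS and PFOS differed in 10 of the 106 members (9.43%), against 9.77% of all genes and loci tested. By direction, 8 were higher in OBS20 (5.85% of all tested) and 2 were lower (3.92% of all tested). This split was 5 higher and 6 lower after median-of-ratios scaling, with 5 of the 10 genes still called, and 7 higher and 6 lower after quantile normalisation, with 8 of the 10. The OBS20 libraries lay wholly above PFOS20 in 16 members (12.4% of all tested) and wholly below in 15 (10.9% of all tested). The share of members called is therefore close to that of the table at large. Of the 3 pairs of exposure groups compared, this is the one in which compounds were at the same dose, and p-values were adjusted over all genes within each pair.

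The 2 lower in OBS20 were enterocyte genes. They were mep1a.2, at -1.05 ± 0.20 (log2 difference, SE; limma adjusted p = 0.0078), and rbp2a, at -0.65 ± 0.16 (limma adjusted p = 0.024). Those higher in OBS20 included both amylase rows, amy2a at 0.77 ± 0.21 (limma adjusted p = 0.045) and zgc:92137 at 0.67 ± 0.16 (limma adjusted p = 0.025). Factor D had the widest gap, with cfd at 2.12 ± 0.43 (limma adjusted p = 0.012), and fetub was higher by 0.47 ± 0.11 (limma adjusted p = 0.025). The others higher in OBS20 were tgm1l3, the nucleotidyltransferase-family gene tent5ab, si:dkey-14d8.7 and si:ch211-240l19.6, at 0.81 to 1.02. After median-of-ratios scaling rbp2a, amy2a, zgc:92137, fetub and si:ch211-240l19.6 were no longer called.

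**Figure D5:**
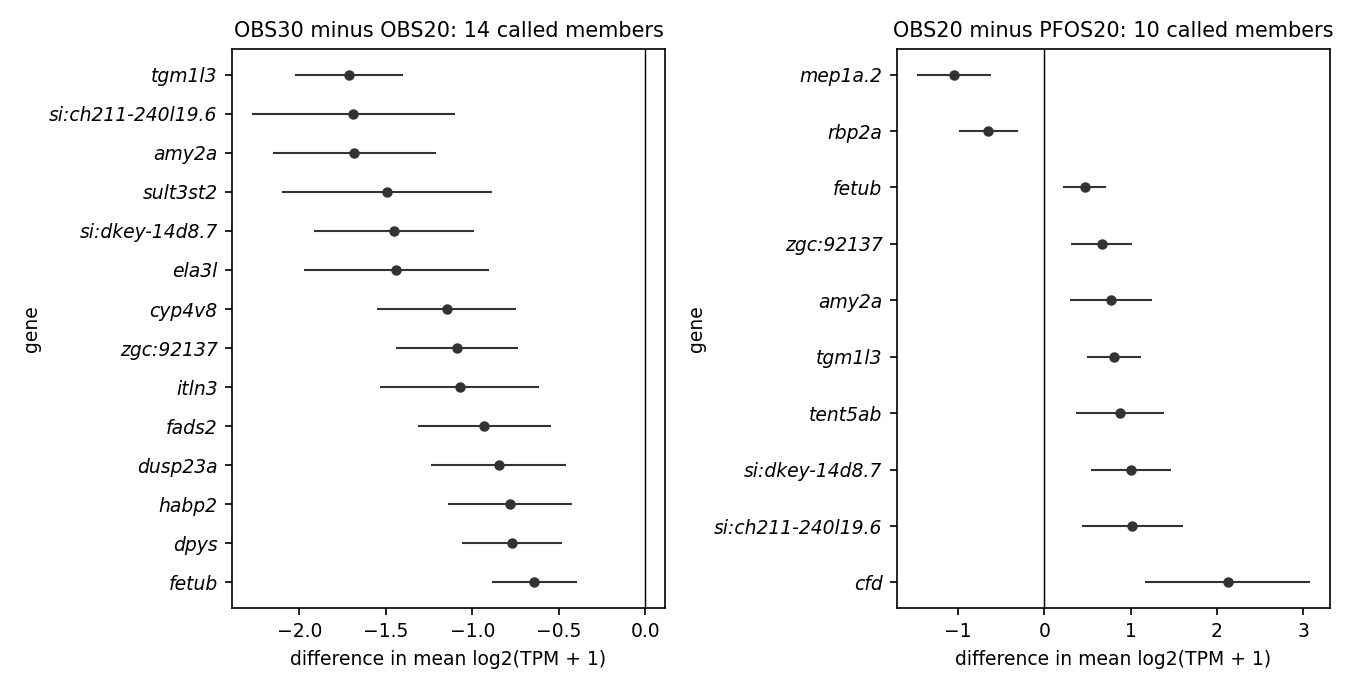
Difference in mean log2(TPM + 1) with its 95% interval (limma) for the members called in OBS30 minus OBS20 (left, 14 genes) and in OBS20 minus PFOS20 (right, 10 genes). All differences on the left are negative, and on the right 2 are negative and 8 positive.

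The 2 compounds were not told apart in the other 96 members, and for 73 of these the 95% interval lay within 1 log2 unit on either side of 0. The scale of log2(TPM + 1) narrows the interval of genes near 0 TPM. An example is ahsg2, at 0.27 TPM in OBS20 and 0.10 TPM in PFOS20, with an interval from -0.22 to 0.61. The rule also caps both groups at 0.6 of control, so the count of 73 does not show that the compounds act alike. No sterol member passed the test. The interval of the OBS20 minus PFOS20 difference ran from -0.56 to 0.13 for cyp51, from -0.62 to 0.17 for hmgcs1 and from -0.28 to 0.55 for sqlea. For msmo1 it ran from -0.89 to -0.10, with a limma adjusted p of 0.11. The interval for sult3st2 ran from -0.36 to 0.85 and that for cyp2ad2 from -0.41 to 0.25.

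The count of 10 was 4 without OBS20 replicate 1, 5 without PFOS20 replicate 2, 5 without PFOS20 replicate 3 and 15 without OBS20 replicate 3. The 3 genes called without each library in turn were mep1a.2, tgm1l3 and cfd. In a fit of only the 6 libraries compared, 0 members were called by limma, with 13 higher and 8 lower at an unadjusted p under 0.05.

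OBS30 and PFOS20 differ in both compound and dose, so their values stand side by side only. Of the members, 17 were called between them (16.0%), against 8.82% of all tested, 16 lower in OBS30 (2.74% of all tested) and 1, cfd, higher (6.09% of all tested). The OBS30 libraries lay wholly below PFOS20 in 45 members (9.53% of all tested) and wholly above in 5 (24.2% of all tested). The rule used these same OBS30 and PFOS20 values, so these gaps describe the members and are no independent support. Members called lower included mep1a.2, MEP1B, rbp2a and pdzd3b of the gut, sult3st2, sult1st6, cyp4v8 and cyp2ad2 of drug metabolism, and elovl2 and fads2. The count was 10 without OBS30 replicate 3, 11 without OBS30 replicate 4, 11 without PFOS20 replicate 2, 9 without PFOS20 replicate 3 and 33 without OBS20 replicate 3.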

How the data were processed

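Poly(A) RNA from whole larvae was sequenced in 12 libraries, per the labels' protocols. The deposited values are TPM per gene or assembled locus, scaled by the authors within each library. HISAT2, StringTie, RSEM and the assembly GRCz11 are named, without roles or versions, per the submitters' processing notes. How reads shared by similar genes were assigned, and whether the library kit kept strand, is not given in the sources used here, so reads of paralogues and overlapping genes cannot be separated. Unmapped value columns numbered 0.

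The rule was applied to the deposited TPM. The members and all gene lists (26 lists, 935 symbols) were chosen with earlier results of these data known, and roles were assigned by hand after the values were seen. List symbols were matched without regard to case, and where several rows shared one the row with the highest mean was used. Contrasts between exposures, and of list genes against control, were fitted with limma 3.58.1 in R 4.3.3 on log2(TPM + 1) over all 12 libraries with group as the only term, eBayes with trend, two-sided, Benjamini-Hochberg over all tested rows. Rows needed at least 1 TPM in at least 3 libraries, which all 106 members passed, and a call is an adjusted p below 0.05. Folds are on the log2(TPM + 1) scale and understate changes of low genes. Tables were handled with Python 3.11.15 and pandas 2.3.3, and the test was checked on simulated data.

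Named genes were members with an assigned symbol that had the 15 highest control means, the 15 lowest ratios, a place in a list (up to 6 per list), the 6 largest called differences per contrast, or the 3 places nearest the threshold on each side. This gave 49 members, and any others named were chosen after their values were seen. Names came from the table, and 100 members were in the reference name table. No genomic positions are given, since the reference is of assembly GRCz12tu, which was used only for which genes neighbour each other. Promoter sequences and motifs were planned but not used here. Alternatives were thresholds of the rule, pseudocount, filter, median-of-ratios and quantile scaling, the replicate number as a block, the 6 libraries compared alone, and leaving out each library. The values of 1 member are not reported here.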

Additional observations from a re-analysis of the deposited data

Results flagged for a closer look

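In 10 members the effects of OBS20 and PFOS20, measured against the same controls, differed by the limma test of OBS20 against PFOS20. This is 9.43% of the members, close to the 9.77% of all genes and loci tested. In OBS20, mep1a.2 and rbp2a were the lower ones, and cfd, si:ch211-240l19.6, si:dkey-14d8.7, tent5ab, tgm1l3, amy2a, zgc:92137 and fetub the higher ones. In 14 members the effects of OBS30 and OBS20 against those controls differed by the test of OBS30 against OBS20, and all 14 were lower in OBS30. These are 13.2% of the members, against 1.58% of all genes and loci tested. The rule used these same values, so the gap is no independent support.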

How the results depend on the processing

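The rule gave 106 genes as stated, 50 with a ratio of 0.5, 237 with 0.7, 208 with a control mean of at least 1 TPM, 70 with at least 10 TPM, 181 without the condition on overlap, 66 after median-of-ratios scaling, and 91 to 156 when a library was left out, the highest without control replicate 3. The members called lower in OBS30 than in OBS20 numbered 14, 3 with only the 6 libraries compared, and 6 to 13 when a library was left out. Those called in OBS20 against PFOS20 numbered 10, 0 with the 6 libraries, and 4 to 15 when a library was left out. Those called in OBS30 against PFOS20 numbered 17, 32 after median-of-ratios scaling, 36 after quantile normalisation, and 9 to 33 when a library was left out. The cause of these moves was not tested, except that fewer libraries leave fewer degrees of freedom. With a pseudocount of 0.1, without the filter, or with only genes averaging 5 TPM or more, these counts stayed within 1.5 times. No member called changed direction under an alternative run. With the replicate number as a block, 3 members were called in OBS30 against OBS20, 5 in OBS20 against PFOS20 and 7 in OBS30 against PFOS20. Deviations of same-numbered libraries correlated by -0.12 to 0.10, and those of differently numbered ones by -0.19 to 0.25. The labels do not say what the numbers mean, so whether they pair the libraries cannot be told. Under every alternative 2 of the 14, 0 of the 10 and 5 of the 17 calls were kept. Of the list counts against control, those moved by over 1.5 times under the block were sterol synthesis (9 in OBS30, 2 in OBS20), complement (10 and 1), and in OBS20 enterocytes (7), hepatocytes (10), cytochrome P450 (4) and protease inhibitors (3). The 6 libraries alone gave 3, 1, 3, 9, 4 and 2 for these lists in OBS20. Median-of-ratios scaling gave 10 for hepatocytes, 4 for cytochrome P450 and 5 for protease inhibitors in PFOS20. Depth is unknown, and 3 libraries a group limit what can be told apart.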

Other observations

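Among assembled loci without an Ensembl identifier, 35 of 3125 with a control mean of at least 5 TPM met the same rule, and the most abundant averaged 25.2 TPM in OBS30, 83.8 TPM in OBS20 and 91.1 TPM in PFOS20, against 220.3 TPM in control, with a chymotrypsin annotation. The mirror of the rule, for genes above control in every exposed library, was met by 59 genes. Of the 131 genes that met the conditions in OBS20 and PFOS20, 25 were not members. Of these 25, 0 were called between OBS30 and OBS20 by limma, and the OBS30 mean was the lower one in 2.

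Of 39 tested genes of the cytochrome P450 and conjugation list, 3 of them members, 12 were called lower and 7 higher in OBS30, 8 and 5 in OBS20 and 8 and 7 in PFOS20. In PFOS20 the split was 4 lower and 10 higher after median-of-ratios scaling and 5 lower and 10 higher after quantile normalisation. The list held genes that moved both ways, while its members were chosen for lying below control. The share called lower over all genes and loci tested was 3.70% in OBS30, 0.805% in OBS20 and 11.9% in PFOS20, and the share called higher 4.73%, 0.681% and 6.35%. The lower count of the cytochrome P450 and conjugation list was 5 in OBS20 without control replicate 2. In PFOS20 it was 4 without each of PFOS20 replicate 4, control replicate 2 and control replicate 3. Of 31 tested protease and inhibitor genes, 3 of them members, 11 were called lower and 6 higher in OBS30, 5 and 1 in OBS20 and 8 and 8 in PFOS20. After quantile normalisation the OBS20 split was 5 lower and 3 higher, and after median-of-ratios scaling the PFOS20 split was 5 lower and 9 higher. That lower count was 3 in OBS20 without each of OBS20 replicate 1, control replicate 2 and control replicate 3, and in PFOS20 it was 4 without PFOS20 replicate 2, 5 without PFOS20 replicate 3 and 3 without control replicate 2.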
